A study of Mus musculus with 2 samples.

Results

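Vasopressin and oxytocin are sister hormones of the hypothalamus, and their genes and receptor genes were followed in tissue of the suprachiasmatic nucleus (SCN), the seat of the central circadian clock. The genes were taken by name from the expression table: Avp and Oxt, which code for the hormone precursors, and the receptor genes Avpr1a, Avpr1b and Oxtr. Of these 5 genes, 4 were found among the 24229 rows, all 4 had a mean of at least 50 counts after division by a size factor for each library, and Avpr1b, the pituitary-type vasopressin receptor, is not analysed here. The short-cycle library (ST) came from wild type C57BL/6 mice, 68 days after birth, that had been entrained to a short T-cycle, meaning a light-dark schedule of a set period. The normal-cycle library (NT) came from mice of the same strain, genotype and age on a normal T-cycle. Each group began with 8 mice that had first spent 7 days in darkness, and both groups were recorded in darkness after 4 weeks on their schedule. After 5 days in darkness, brains were taken at circadian time 4 h and SCN tissue was cut from slices of 250 µm. Polyadenylated RNA was sequenced as 1 library per group. How long either schedule's cycle was, the sex of the mice and how many of them went into a library are not stated in the labels.

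Both hormones are short ring-shaped peptides that are cut from a larger precursor, which also holds a neurophysin, the carrier protein that travels with the hormone in the secretory granule. Vasopressin is made by neurons of the dorsal SCN, where its gene is a classical clock output, read through E-box elements by the activators Clock and Arntl. Vasopressin and oxytocin are also made in large amounts by magnocellular neurons of the paraventricular and supraoptic nuclei, which lie close to the SCN and supply the posterior pituitary. The V1a receptor (Avpr1a) and the oxytocin receptor (Oxtr) couple mainly to Gq proteins and release calcium from internal stores. The V2 receptor (Avpr2) raises cyclic AMP and is best known from the kidney.

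Avp and Oxt sit side by side and share a stretch of sequence, which bears on every count of either gene. In mm9 coordinates, Avp (ENSMUSG00000037727) lies on the minus strand of chromosome 2 from 130406356 to 130408290, and Oxt (ENSMUSG00000027301) on the plus strand from 130401699 to 130402790 in the deposited table. The genes point towards each other and are 3566 bases apart. The GENCODE vM1 annotation starts Oxt later, at 130401909, and gives each gene 3 exons. Exon 2, which codes for the conserved core of neurophysin, is 202 bases long in both genes, and 193 of these bases are the same. The mm9 sequences of exon 2 are shown because they are where reads of the genes cannot be told apart, with the first 125 bases, identical in both genes, in capitals. Avp exon 2 spans chr2:130406792-130406993 on the minus strand and Oxt exon 2 spans chr2:130402327-130402528 on the plus strand, both coding throughout.
Avp exon 2: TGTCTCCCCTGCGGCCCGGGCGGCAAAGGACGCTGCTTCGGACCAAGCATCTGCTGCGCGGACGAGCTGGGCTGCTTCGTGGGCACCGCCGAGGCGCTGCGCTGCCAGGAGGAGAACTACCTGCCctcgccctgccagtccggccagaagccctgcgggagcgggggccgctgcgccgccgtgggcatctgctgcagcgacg
Oxt exon 2: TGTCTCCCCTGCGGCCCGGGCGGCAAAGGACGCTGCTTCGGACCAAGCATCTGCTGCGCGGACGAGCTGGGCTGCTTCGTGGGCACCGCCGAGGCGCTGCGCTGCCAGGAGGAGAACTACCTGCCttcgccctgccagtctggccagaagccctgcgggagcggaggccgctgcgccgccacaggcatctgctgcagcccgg
With the last 2 bases of exon 1, the identical run in the spliced transcripts is 127 bases long. A read that falls wholly inside this run fits both transcripts equally well. The read length is not stated in the labels or file headers. For words of 36 bases, 92 of the 542 in the Avp transcript (17.0%) also occur in the Oxt transcript, and for words of 100 bases it is 28 of 478 (5.86%).

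**Figure D1:**
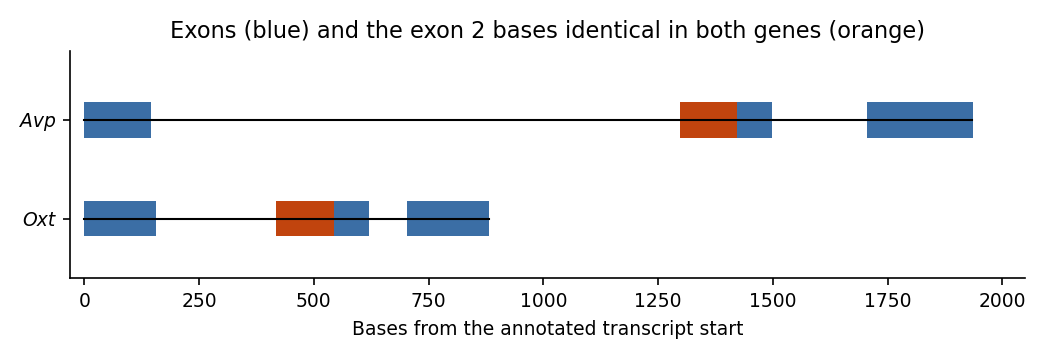
Exons of Avp and Oxt drawn to scale from the annotated transcript start of each gene (horizontal axis, bases), in the direction of transcription, with introns as lines. The orange part marks the first 125 bases of exon 2, which are identical in both genes and make up 61.9% of that exon.

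Exon 1, which carries the signal peptide, the hormone itself and the first residues of neurophysin, differs more. Its coding bases are shown because this is where the hormones part, with capitals for bases that are the same when the exons are aligned from their 3′ ends. Avp has 132 coding bases in exon 1 (chr2:130408146-130408277, minus strand) and Oxt has 120 (chr2:130401946-130402065, plus strand), and 78 of the 120 aligned bases are identical.
Avp exon 1, coding: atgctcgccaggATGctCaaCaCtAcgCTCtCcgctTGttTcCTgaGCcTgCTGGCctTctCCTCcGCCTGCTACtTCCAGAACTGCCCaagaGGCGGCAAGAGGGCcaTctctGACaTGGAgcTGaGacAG
Oxt exon 1, coding: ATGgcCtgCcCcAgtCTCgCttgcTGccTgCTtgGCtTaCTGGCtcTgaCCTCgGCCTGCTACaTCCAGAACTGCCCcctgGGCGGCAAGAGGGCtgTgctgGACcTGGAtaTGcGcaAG
The deposited counts of the hormone genes are not whole numbers. Avp had an estimated count of 7334.44 in ST and 8008.98 in NT, and Oxt had 8788.56 in ST and 9026.02 in NT. The sum of both genes is, however, 16123 in ST and 17035 in NT, whole to within 1e-06. The decimals of one gene thus complete those of the other in each library. The same holds for Ubox5 and Fastkd5, neighbouring genes whose models overlap, with sums of 468 in ST and 532 in NT. Avpr1a and Oxtr had whole counts in both libraries.

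Per unit of length, the hormone genes were far more abundant than their receptors. Oxt had 811.6 RPKM in ST and 654.8 RPKM in NT, where RPKM is reads per kilobase of gene model, scaled to the library total. Avp had 656.1 RPKM in ST and 562.8 RPKM in NT. By RPKM, Oxt ranked 35 in ST and 45 in NT among all rows, and Avp ranked 48 in ST and 53 in NT. Avpr1a had 6.89 RPKM in ST and 6.36 RPKM in NT. Oxtr had 1.15 RPKM in ST and 1.79 RPKM in NT. The order Oxt, Avp, Avpr1a, Oxtr was thus the same in both libraries, and the levels of different genes did not overlap between libraries except that Avp in ST (656.1 RPKM) stood just above Oxt in NT (654.8 RPKM). The renal-type receptor gene Avpr2, which is not among the 5 genes, followed with 0.131 RPKM in ST and 0.0353 RPKM in NT, from 7 and 3 counts.

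**Figure D2:**
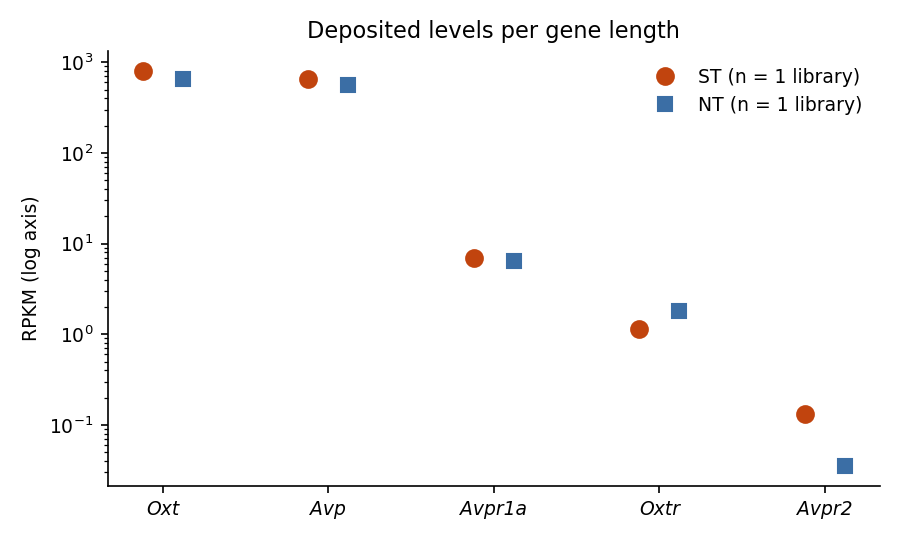
Deposited RPKM (vertical axis, log scale) of Oxt, Avp, Avpr1a, Oxtr and Avpr2, with the ST library as circles and the NT library to its right as squares, 1 library per group and so no error bars. The hormone genes lie between 562.8 and 811.6 RPKM, Avpr1a near 6 to 7, Oxtr between 1 and 2, and Avpr2 below 0.2.

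The libraries held 19476800 counts in ST and 24790727 counts in NT. The spread between mice could not be estimated from a single library per group, so no p-value was computed, and each difference compares these libraries and not the conditions. Intervals are exact 95% intervals for counting error alone, and take the rounded estimated counts as given. PCR copies were not marked by molecular identifiers, so reads may repeat a molecule and the intervals may be too narrow. In tissue samples, fewer cells of a type and less RNA per cell cannot be told apart. Values called normalised are counts divided by a size factor, 0.890 for ST and 1.12 for NT.

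Both hormone genes were higher in the ST library, by less than 1.5-fold. Avp had 8239 normalised counts in ST and 7129 in NT, a 1.16-fold ratio with an interval of 1.12 to 1.19 (log2 ratio 0.21). Oxt had 9874 normalised counts in ST and 8034 in NT, a 1.23-fold ratio with an interval of 1.19 to 1.27 (log2 ratio 0.30). Neither interval holds 1, while differences between mice were not measured. Because the division of shared reads could move counts from one gene to the other, both genes were also taken as 1 feature. Their sum was 1.19-fold higher in ST (1.17 to 1.22), with 18113 normalised counts in ST and 15163 in NT, and this ratio does not depend on how reads were divided between them. In the authors' deposited table, the log2 fold change was 0.21 with p = 0.105 for Avp and 0.30 with p = 0.0218 for Oxt, and the adjusted p was 1 for both.

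The balance between the hormones was close in both libraries. Oxt took 54.5% of the summed count in ST (exact Clopper-Pearson interval 53.7 to 55.3) and 53.0% in NT (52.2 to 53.7). Per length, the ratio of Oxt to Avp was 1.24 in ST and 1.16 in NT. The ST-over-NT ratio of Oxt was 1.06 times that of Avp (conditional exact interval 1.02 to 1.11). The shares and ratios of this paragraph all rest on how the shared reads were divided, and the intervals do not cover that.

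The receptors went different ways. Avpr1a had 402.2 normalised counts in ST and 374.7 in NT, from 358 and 421 raw counts, a 1.07-fold ratio. Its interval of 0.930 to 1.24 holds 1, so a difference was not detectable at this depth. Oxtr had 114.6 normalised counts in ST and 180.7 in NT, from 102 and 203 raw counts. It was 1.58-fold lower in ST, with an interval of 1.24 to 2.02 (log2 ratio -0.65). In the authors' deposited table, p was 0.561 for Avpr1a and 0.00840 for Oxtr, with an adjusted p of 1 for both. Set against each other, the ST-over-NT ratio of Avpr1a was 1.69 times that of Oxtr (1.27 to 2.26). Oxtr was also the gene whose ligand differed the other way, since the ratio of Oxt was 1.94 times that of Oxtr (1.52 to 2.49). Per length there were 707.6 times as many Oxt as Oxtr reads in ST and 365.1 times as many in NT. In mm9 coordinates as deposited, Avpr1a (ENSMUSG00000020123) lies on chromosome 10 from 121885555 to 121890509 and Oxtr (ENSMUSG00000049112) on chromosome 6 from 112423678 to 112439802. The GENCODE vM1 annotation gives Avpr1a the same span and ends Oxtr at 112440884.

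**Figure D3:**
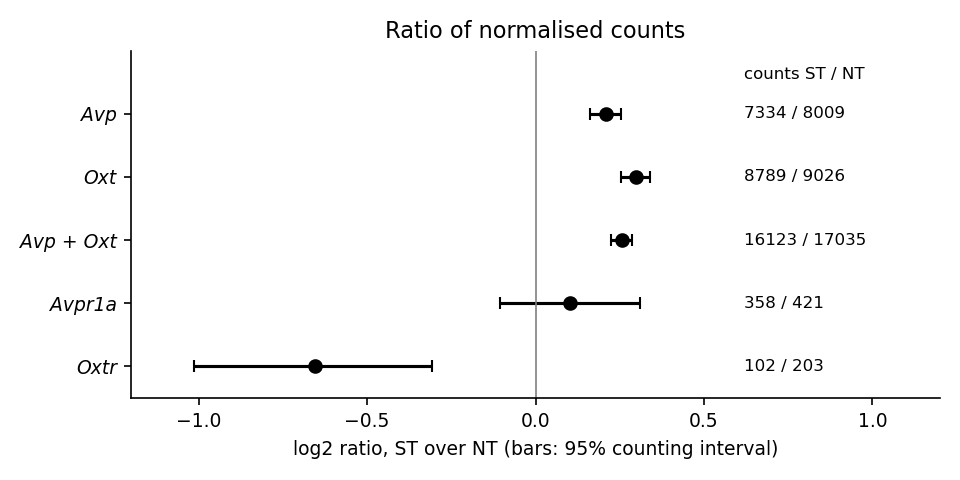
Log2 ratio of normalised counts, ST over NT (horizontal axis), for Avp, Oxt, both summed, Avpr1a and Oxtr, with bars for the exact 95% counting interval and the rounded counts at the right. Avp, Oxt and their sum lie above 0, Avpr1a spans 0, and Oxtr lies at -0.65 with the widest interval.

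Of the 4 genes, 0 were at least 2-fold apart, against 0.251% of the 14343 measured genes. Oxt and Oxtr were the 2 genes at least 1.2-fold apart (9.46% of measured genes). Oxtr was the 1 gene at least 1.5-fold lower in ST (0.865% of measured genes), and 0 were at least 1.5-fold higher (0.314%). The interval lay above 1 for 2 of the 4 (7.79% of measured genes) and below 1 for 1 of the 4 (10.2%). These shares depend on abundance, since well-counted genes have narrow intervals. Among the 739 other genes whose mean normalised count was within 2-fold of that of Oxt, 0 had a log2 ratio as high. Among 930 such genes for Avp, 3 did. Each of these sets includes the other hormone gene, so Oxt, which shares reads with Avp, is among the 3. Over all measured genes, 2.43% were as high as Oxt and 5.42% as high as Avp. Of 3484 genes close to Oxtr in abundance, 34 (0.976%) were as low. For Avpr1a, 1023 of 5070 such genes (20.2%) were as high.

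**Figure D4:**
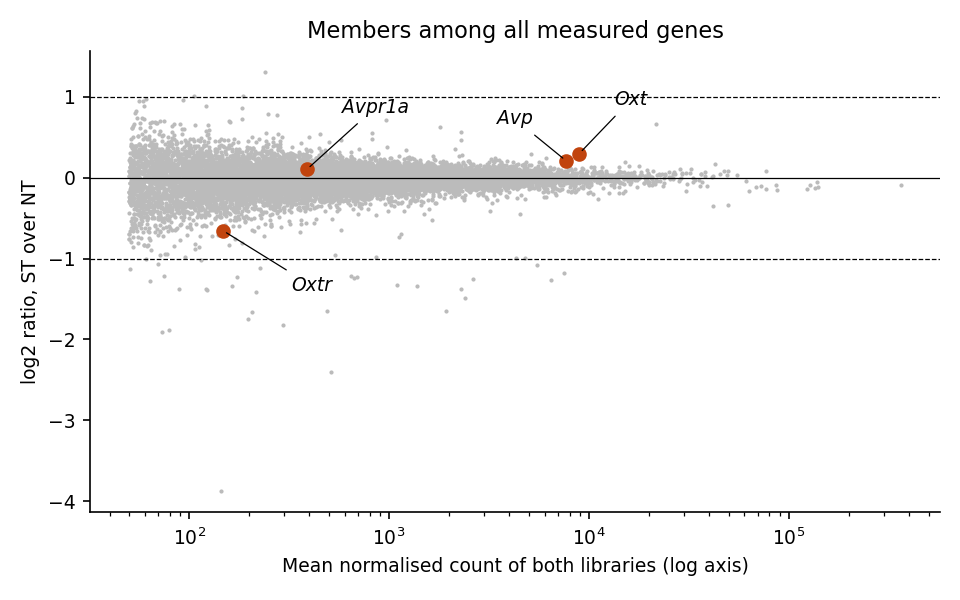
Log2 ratio of ST over NT (vertical axis) against the mean normalised count of both libraries (horizontal axis, log scale) for the 14343 measured genes in grey, with Avp, Oxt, Avpr1a and Oxtr marked and dashed lines at 2-fold. Avp and Oxt sit at the upper edge of the cloud at their abundance, Oxtr near the lower edge, and Avpr1a inside it.

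The promoters of the hormone genes were read because Avp is known as a clock-controlled gene. The 250 bases before the transcript start are shown from RefSeq (GRCm38.p6), with capitals for the E-box CACGTG and its variant CACGTT, searched on both strands.
Avp upstream, chr2:130582589-130582838, minus strand: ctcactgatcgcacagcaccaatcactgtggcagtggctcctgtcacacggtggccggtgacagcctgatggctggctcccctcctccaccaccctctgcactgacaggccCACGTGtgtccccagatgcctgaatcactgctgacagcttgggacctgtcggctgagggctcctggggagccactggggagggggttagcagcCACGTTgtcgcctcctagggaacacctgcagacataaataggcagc
Oxt upstream, chr2:130575919-130576168, plus strand: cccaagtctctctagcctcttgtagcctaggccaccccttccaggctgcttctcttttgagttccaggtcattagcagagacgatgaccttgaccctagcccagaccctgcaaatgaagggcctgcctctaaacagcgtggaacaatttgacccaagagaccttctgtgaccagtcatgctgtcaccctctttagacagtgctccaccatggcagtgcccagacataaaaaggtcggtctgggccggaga
The Avp window holds 1 E-box, which starts 139 bases before the transcript start, and 1 copy of the variant, which starts 46 bases before it; the motifs do not overlap. No match to either was found in the Oxt or Avpr1a windows, and the Oxtr window holds 1 E-box, 43 bases before its start. Of 32851 promoter windows of the same length, 6.02% hold the E-box and 3.85% the variant. The D-box TTATGTAA (0.819% of windows) and the cyclic AMP response element TGACGTCA (1.55%) were found in none of the windows of these 4 genes. A match is a description of the letters and not a site shown to be used.

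Clock genes, among them activators and repressors of E-box and D-box elements and the nuclear receptors Nr1d1 and Nr1d2, which bind another element, were nearly level. Of 13 measured, 5 were higher and 8 lower in ST, with 2 intervals above 1 and 1 below, and the median log2 ratio was -0.01. Over all measured genes, 7048 were higher and 7295 lower, with a median of 0.00. The E-box activators Clock (log2 ratio 0.06) and Arntl (0.06) had intervals that held 1. Npas2, a relative of Clock, was at 0.26 with an interval of 0.823 to 1.75. The period gene Per1 was at 0.21 (1.10 to 1.21) and the nuclear receptor repressor Nr1d1 at 0.16 (1.07 to 1.17), and Nr1d1 shares reads with other features. The D-box activator Dbp was at -0.16 (0.852 to 0.944) and also shares reads. Nr1d2, the most abundant of the 13 by mean normalised count, was at -0.05 (0.927 to 1.01). Avp thus had the same log2 ratio as Per1 to 2 decimals.

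The genes that turn a precursor into a stored peptide were mixed. All 12 were measured, 8 higher and 4 lower in ST, with 4 intervals above 1 and 3 below and a median log2 ratio of 0.03. Pcsk1n, which codes for proSAAS, an inhibitor of prohormone convertase 1, was at 0.19 (fold interval 1.12 to 1.17), with 337.6 RPKM in ST and 293.2 RPKM in NT. The granule protein Scg2 was the most abundant by count, at 0.17 (1.11 to 1.14), with 831.2 RPKM in ST and 734.9 RPKM in NT. Pcsk5, a further convertase, was at 0.16 (0.876 to 1.42). The enzymes that cut and amidate the hormones were close to level, with Pcsk1 at 0.03 (0.937 to 1.11), Pcsk2 at 0.03 (0.982 to 1.06), Cpe at -0.04 (0.956 to 0.988) and Pam at 0.00 (0.961 to 1.04).

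Release and breakdown genes were few. Of 4 measured, 1 was higher and 3 were lower in ST, with 1 interval above 1 and 1 below and a median of -0.08. Cd38, an ADP-ribosyl cyclase needed for oxytocin release in mice, was at -0.19 (0.787 to 0.982) and shares reads. The calcium channel Trpm2, which ADP-ribose opens, was at 0.19 (1.02 to 1.27). Lnpep, the aminopeptidase also called oxytocinase, was at -0.09 (0.852 to 1.04).

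The Gq pathway below the V1a and oxytocin receptors was near level. Of 19 genes, 17 were measured, 7 higher and 10 lower in ST, with 1 interval above 1 and 2 below and a median log2 ratio of -0.04. Itpr3, a calcium release channel of internal stores, was at -0.34 (0.586 to 1.06) on 77 counts in ST and 123 in NT. The phospholipase Plcb3 was at -0.18 (0.786 to 0.997), the arrestin Arrb2 at -0.13 (0.828 to 1.01) and Gnaq, the Gq alpha subunit, at -0.06 (0.917 to 0.9999). Arrb1, the most abundant by count, was at -0.04, with an interval that held 1. The 1 interval above 1 was that of Rgs2, at 0.12 (1.006 to 1.170), and Gna11 was at 0.06 (0.990 to 1.10).

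Oxytocin is known mainly from the paraventricular and supraoptic nuclei, so markers of these neighbours are set beside the Oxt value. Transcripts of Otp, a transcription factor of the neuroendocrine lineage, stood at 11.9 RPKM in ST and 10.3 RPKM in NT, and those of Sim1, another factor of that lineage, at 1.734 RPKM in ST and 1.499 RPKM in NT. The log2 ratio was 0.19 for Otp (fold interval 0.964 to 1.35) and 0.20 for Sim1 (0.962 to 1.37). Of 5 such factors, 4 were measured, 2 higher and 2 lower, with 0 intervals clear of 1 and a median of 0.08. Pou3f2 was at -0.09 (0.739 to 1.19), and Arnt2, the most abundant, at -0.03 (0.946 to 1.01). The summed normalised counts of the 4 were 8293 in ST and 8413 in NT. Most of this sum is Arnt2, with a mean normalised count of 7659, against 286 for Otp and 261 for Sim1. It therefore says little about Otp, Sim1 or Pou3f2.

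Of 7 peptides of those nuclei, 6 were measured, 4 higher and 2 lower in ST, with 3 intervals above 1 and 1 below and a median of 0.28. Their summed normalised counts were 7036 in ST and 5948 in NT. Trh, the thyrotropin-releasing hormone, was at 0.56 (1.39 to 1.57), Cck, cholecystokinin, at 0.54 (1.22 to 1.72) and Gal, galanin, at 0.48 (1.12 to 1.74). Cartpt was at -0.25 (0.708 to 0.993). Pdyn, the dynorphin precursor that magnocellular vasopressin neurons also make, was at -0.16 (0.783 to 1.02), and Penk, the most abundant by count, at 0.07 (0.998 to 1.11). Gal and Cck are also made by SCN neurons. The part of these neighbouring nuclei in the Avp and Oxt values was not tested.

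SCN peptides and receptors went both ways. Of 10 genes, 9 were measured, 4 higher and 5 lower in ST, with 2 intervals above 1 and 2 below and a median of -0.09. The peptide gene Sst was at 0.24 (1.14 to 1.22), with 507.1 RPKM in ST and 426.1 RPKM in NT. Rgs16, which shortens G-protein signals, stood at 0.16 (1.07 to 1.16). Vip, the peptide of the ventral SCN, was at -0.24 (0.818 to 0.880), with 168.5 RPKM in ST and 196.9 RPKM in NT. Grpr, the gastrin-releasing peptide receptor, was at -0.31 (0.614 to 1.055), Prok2, the clock output peptide prokineticin 2, at -0.29 (0.632 to 1.054), and Nms, neuromedin S, at -0.25 (0.738 to 0.958). Summed normalised counts of the 9 measured genes were 21708 in ST and 21210 in NT, and Vip, Sst and Rgs16 made up most of this. Others had few counts, with 92 in ST and 144 in NT for Grpr and 103 in ST and 159 in NT for Prok2.

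Markers of non-neuronal cells were lower in ST, like Oxtr and unlike Avp and Oxt. All 8 oligodendrocyte, 7 microglial, 7 endothelial or mural and 5 measured meningeal markers were lower, with medians of -0.29, -0.27, -0.35 and -0.94, and 8, 6, 7 and 5 of them had an interval below 1. Of 7 astrocyte markers, 6 were lower and all 6 intervals lay below 1, with a median of -0.10. Of 9 neuron markers, 7 were measured, 2 higher and 5 lower, 3 with an interval below 1, and the median was -0.05. Summed normalised counts of the 5 meningeal markers were 1341 in ST and 2439 in NT, and those of the neuron markers 99124 in ST and 101820 in NT. Pomc, made in the pituitary and the arcuate nucleus, was at -2.41, with 144 counts in ST and 966 in NT. Lhb, the luteinising hormone beta chain and the other measured pituitary marker, was at 0.21 (0.872 to 1.53), with 99 counts in ST and 108 in NT, and shares reads. The part of other cell types in the Oxtr value was not tested.

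**Figure D5:**
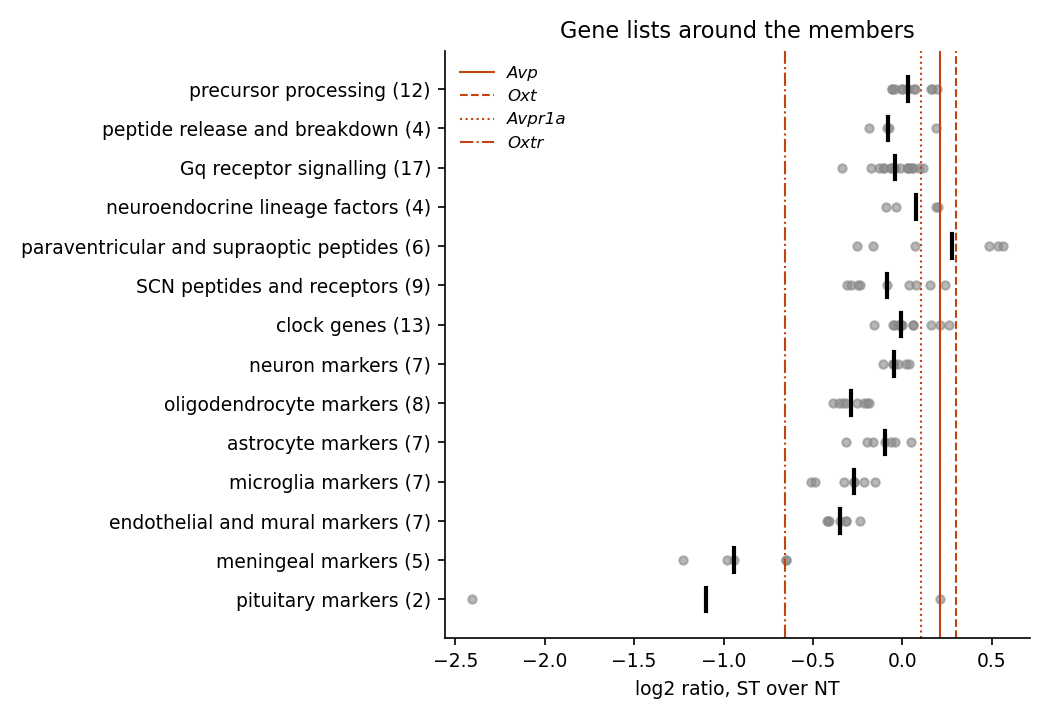
Log2 ratio of ST over NT (horizontal axis) for the measured genes of 14 lists, as grey points, with a black bar at each list's median and the number of measured genes in brackets; coloured vertical lines mark Avp, Oxt, Avpr1a and Oxtr. Avp and Oxt lie right of the bulk of most lists, near the upper peptides and precursor processing genes, and Oxtr lies left of all points except those of 3 meningeal markers (Col1a1, Igf2 and Col3a1) and Pomc.

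The neighbours of the locus on chromosome 2 gave no shared direction at this depth. Within 50000 bases of Avp or Oxt the table lists 6 other genes, of which Ptpra, 4930473A02Rik, Mrps26, Ubox5 and Fastkd5 were measured. Mrps26, a mitochondrial ribosomal protein gene 7268 bases from Oxt, was at 0.03 (fold interval 0.928 to 1.12). Ubox5, a ubiquitin ligase gene 7448 bases from Avp, was at 0.12 (0.936 to 1.27). Fastkd5 was at 0.22 (0.919 to 1.47), the phosphatase gene Ptpra at -0.05 (0.896 to 1.04) and 4930473A02Rik at 0.06 (0.692 to 1.56), and all 5 share reads. The sixth, AL731707.1, had 1 count in ST and 0 in NT.

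Genes of like abundance and like ratio were looked up for each of the 4. They are the 3 genes within 2-fold of its mean count with the smallest difference in log2 ratio. The 4 themselves were left out of the search, as were genes without an ordinary symbol, such as clone, Rik, Gm or microRNA names. Over 2 libraries this is a likeness of a single ratio. For Avp they included Odz4 (0.20) and the transcription factor Zic1 (0.19). For Oxt they were Syne1 (0.30), the peptide gene Sst (0.24) and Zic1 again. For Avpr1a they were Tmem212, Krt222 and Tmie, all at 0.10. For Oxtr they were Dcn, the proteoglycan decorin of connective tissue, at -0.65, the interferon regulatory factor Irf7 at -0.66, and Fgl2 at -0.65.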

How the data were processed

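Polyadenylated RNA of 1 ST and 1 NT library was analysed from the authors' deposited table. Per the file headers it holds estimated counts (RC), RPKM and RPM values per library, and the authors' fold ratio, log2 fold change and p-value with its adjusted p-value for ST over NT. RPM and RPKM were deposited already scaled to the library total. The submitters' processing notes list CASAVA 1.8.2, TopHat 1.2 and DESeq with build mm9; their roles, the counter and the read length are not stated. Another 3 columns, of means, were left out because their names do not tie each to a sample.

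Estimated counts were rounded to whole numbers and divided by median-of-ratios size factors. Log2 ratios carry a pseudocount of 0.5, and folds none. A gene is called measured from a mean normalised count of 50 upwards. Intervals are exact (Clopper-Pearson) for the share of a gene's counts in ST, converted to a ratio (scipy 1.17.1, pandas 2.3.3, Python 3.11.15). TMM factors came from edgeR 4.0.16. The calculation was tested on simulated counts. mm9 sequences were read from NCBIM37, whose GENCODE vM1 transcripts of Avp and Oxt matched.

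Members and lists were chosen with earlier results of these data known. Genes named are the 5 members, Avpr2, up to 3 genes per list by size of log2 ratio with the most abundant one, genes within 50000 bases, and 3 like genes per member, of which 1 is not reported here; markers of non-neuronal cells are given as counts. Clock, Arntl, Pcsk1, Pcsk2, Cpe, Pam, Gnaq, Gna11, Rgs2, Dbp, Sst, Rgs16, Cartpt and Pdyn were added after their values were seen. So were Crh, Sim2, Tshb, Lum, Nmu and Plcb2. Genes with a count that is not whole in either library (tolerance 1e-06) are said to share reads; beside those marked, these include Avp, Oxt, Avpr2, Pcsk1n, Pcsk2, Pcsk5, Itpr3, Arrb1, Arnt2, Penk, Prok2, Clock, Odz4, Syne1, Tmem212, Tmie and Irf7.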

Additional observations from a re-analysis of the deposited data

How the results depend on the processing

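No paired analysis was possible because there was a single library in each group, so that none could be left out either. Scaling by total counts or TMM, a pseudocount of 5, counts rounded down and the ratio of deposited RPKM values were tried for Avp, Oxt, Avpr1a and Oxtr, and Avpr1b gave no value. Of 22 such values, 21 stayed within the counting interval. The exception was Avp counted together with Oxt, at 0.256, just past the upper bound of 0.255 for Avp alone. By construction, the summed value lies between those of Avp and Oxt. The number of members past the size rule was 2 at 1.2-fold and 1 at 1.5-fold, against 0 at 2-fold, by construction. With a filter of 200, Oxtr was not measured and 2 members had an interval clear of 1, against 3 otherwise. Of 56 list values, 47 kept their sign and moved by at most 0.1. Those that did not were the lineage factors with a filter of 10 or 200 (0.19 in both), the neighbouring peptides (0.48 with a filter of 10, 0.07 with 200), SCN peptides with 200 (0.04), clock genes scaled by total counts (0.01) or by the mean (0.03), meningeal markers with 200 (-0.65) and pituitary markers with 200 (-2.41, Pomc alone). The filters change which genes are counted. Scaling by total counts shifts all log2 ratios nearly alike, by at most 0.0122 for the members. The mean is a different summary of the same clock gene values, whose median lay close to 0. Depth limits Oxtr most, with an interval of 1.24-fold to 2.02-fold lower.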

Other observations

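A few genes of the lists, and Avpr2, were under the count filter of 50, so their ratios are not given above. Crh, the corticotropin-releasing hormone of the paraventricular nucleus, had 32 counts in ST, against 15 in NT (fold interval of the ratio 1.42 to 5.35). Sim2, a transcription factor related to Sim1, had 18 counts in ST and 11 in NT (0.924 to 4.84). Avpr2 had 7 counts in ST and 3 in NT (0.672 to 17.6) and shares reads. Tshb, the thyrotropin beta chain of the anterior pituitary, had 5 counts in ST and 13 in NT (0.135 to 1.45).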
